A study of Mus musculus with 7 samples.

Results

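The genes described are 10 regulators of entry into the cell cycle, listed by name when earlier results of these data were already known: 4 genes for inhibitors of cyclin-dependent kinases (Cdkn1b, Cdkn1c, Cdkn2c and Cdkn2d), 3 genes of the retinoblastoma family (Rb1, Rbl1 and Rbl2) and 3 genes for D cyclins (Ccnd1, Ccnd2 and Ccnd3). They are 10 of the 32285 genes in the count files, and all 10 were among the 17155 genes with enough counts to be tested. The utricle is a balance organ of the inner ear in which sensory hair cells stand among supporting cells. All 7 libraries came from P2 mouse utricles in culture that were damaged with 2 mM gentamicin for 24 h, an aminoglycoside that kills hair cells, and were collected at day 5 after injury. The Gent+Fos OE group (4 libraries) was also given AAV-PHP.eB carrying mouse Fos under a CMV promoter for 48 h, and the Gent group (3 libraries) is labelled with gentamicin only. The paper writes of the controls of its overexpression experiments as given an EGFP virus, while the labels of the Gent libraries name no virus and their deposited counts carry a name with letters that also stand for shRNA. The Gent group is taken here as its labels give it. Taken so, being given a virus and overexpressing Fos cannot be told apart in any comparison of the groups. No undamaged group is compared here. A CMV promoter is active in many cell types, and each library pooled 12 utricles, so values are averages over all cells of the pool, in which fewer cells of a type and less RNA per cell cannot be told apart.

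As background, D cyclins bind the kinases CDK4 and CDK6 and start the phosphorylation of the retinoblastoma proteins, also called pocket proteins. Unphosphorylated pocket proteins hold E2F transcription factors and keep genes for DNA replication and mitosis off. INK4 inhibitors such as the products of Cdkn2c and Cdkn2d bind CDK4 and CDK6, whereas the Cip/Kip inhibitors made from Cdkn1b and Cdkn1c act on several cyclin-kinase complexes. In the mouse inner ear, the Cdkn1b product is known for holding supporting cells out of the cycle, and the Cdkn2d product and Rb1 for keeping hair cells from re-entering it. Much of this control acts on the proteins, which were not measured here.

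Libraries held between 27879889 and 34335214 counted reads, of which a single gene among the 10 took 293 (Cdkn2c) to 9134 (Ccnd1), and values are given as CPM, the reads of a gene scaled to a common library size, after TMM normalization. Fos itself averaged 154 CPM (SD 8.46, n = 4) in the group given the Fos virus against 38.2 CPM (SD 3.18, n = 3) in the Gent group, and the lowest Gent+Fos OE library (149 CPM) was far above the highest Gent library (40.6 CPM). Gent replicate 2 stood apart: its deviation from the mean of all libraries fell with gene length (Spearman's rho across genes -0.50). Mitochondrial genes took 2.86% of its reads against 1.74% to 1.99% elsewhere. A trend with length was not confined to it: rho was 0.124 to 0.325 in Gent+Fos OE, 0.153 in Gent replicate 1 and -0.221 in Gent replicate 3. In exon length, 7 of the 10 genes exceeded the median tested gene. Of the 10 genes, 6 were lower and 4 higher in Gent replicate 2 than the mean of the other Gent libraries, by -1.18 (Rbl1) to 0.86 (Cdkn1c) on the log2 scale. The fold changes of the 10 genes are therefore also given without it. Supporting cell markers summed to 2432 to 2965 CPM in Gent+Fos OE against 2151 to 2680 CPM in Gent, and hair cell markers to 734 to 927 and 638 to 800 CPM, so RNA of both cell types was present. The markers Hes5 and Ocm were too low to be tested, and markers of red blood cells did not pass 1.07 CPM in sum.

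None of the 10 genes was called at an adjusted p under 0.01 with an absolute log2 fold change over 0.25 (quasi-likelihood F-test of edgeR, Benjamini-Hochberg adjusted over all 17155 genes), where 0.414% of all genes tested were called. At an unadjusted p under 0.05 in the same edgeR test, 3 of the 10 passed, Cdkn1c and Ccnd1 with higher and Cdkn2c with lower values in Gent+Fos OE, against 24.5% of all genes tested. The lowest adjusted p among the 10 was 0.0703 (edgeR, Cdkn2c), and 0 were under 0.05. DESeq2 called 1 of them (Cdkn2c, lower), against 2.86% of all genes it tested, and limma-voom called 0. In 5 of the 10 the libraries of the groups did not overlap, which was so for 23.4% of all genes tested: Cdkn1c, Rb1, Rbl2 and Ccnd1 lay higher in Gent+Fos OE and Cdkn2c lower. A count of 3 in 10 is near its background, and a count of 5 in 10 is above it in a set too small to read further. The median log2 fold change was 0.24 over the 10 genes and -0.00075 over all genes tested, and without Gent replicate 2 it was 0.0053 and -0.00061.

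**Figure D1:**
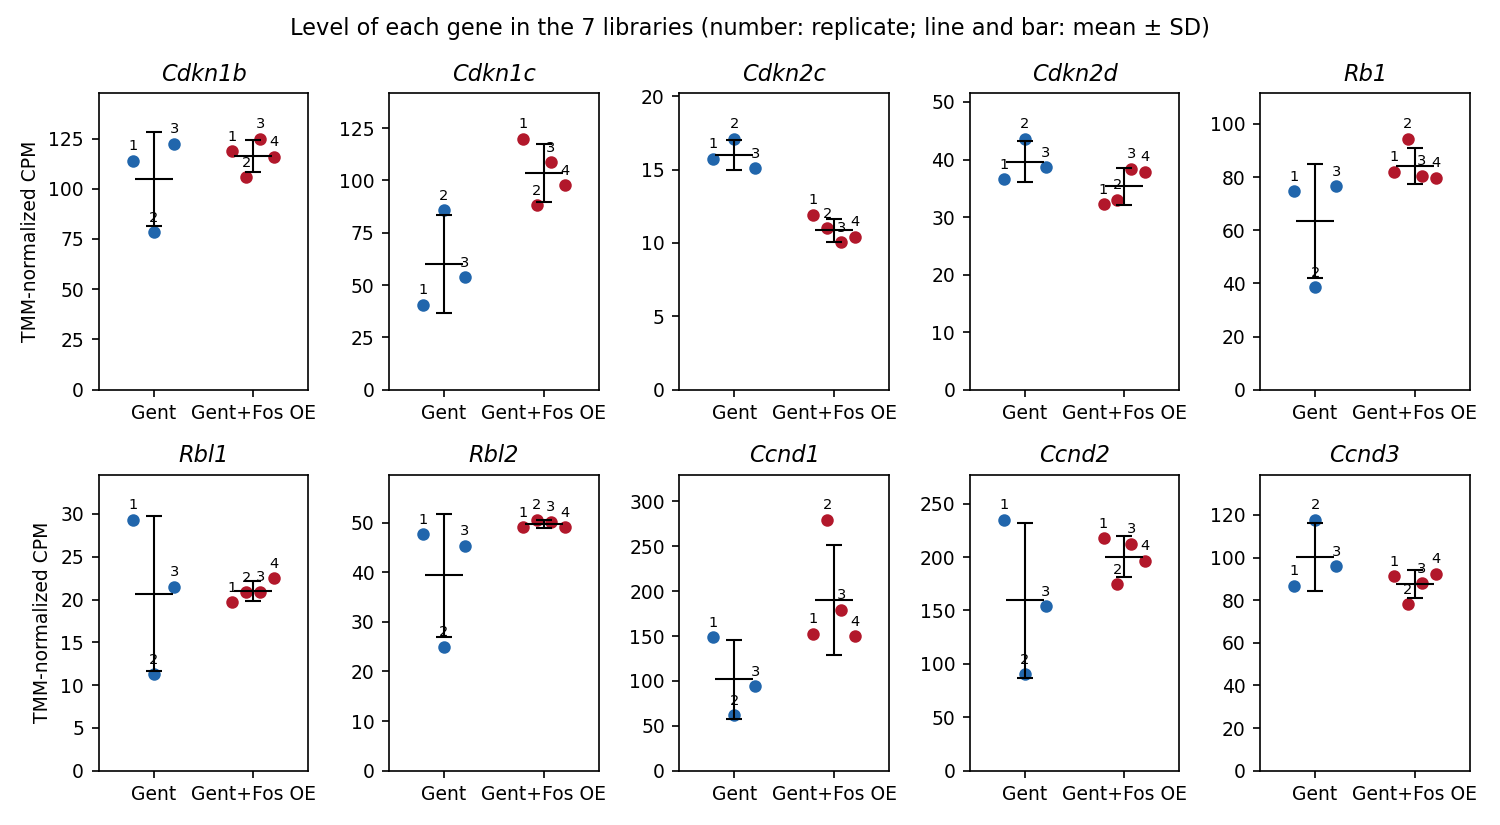
TMM-normalized CPM of the 10 genes (vertical axes, each from 0) in the 3 Gent and 4 Gent+Fos OE libraries, with the replicate number above each point and a line and bar for mean ± SD. Gent replicate 2 is the lowest library for Cdkn1b, Rb1, Rbl1, Rbl2, Ccnd1 and Ccnd2, and the groups do not overlap for Cdkn1c, Cdkn2c, Rb1, Rbl2 and Ccnd1.

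Cdkn1c (ENSMUSG00000037664, mm10 chromosome 7, 143458339 to 143461050, minus strand; all coordinates are on mm10), an imprinted gene for the inhibitor Kip2, had the highest mean level per length of the 10 genes in each group when all libraries were kept. Its values were 119.9, 88.2, 109 and 97.6 CPM in Gent+Fos OE replicates 1 to 4 and 40.6, 85.8 and 53.7 CPM in Gent replicates 1 to 3. The groups were apart, but Gent replicate 2 came close to the lowest Gent+Fos OE library. In edgeR the log2 fold change was 0.79 (standard error 0.23, 95% interval 0.28 to 1.29, edgeR adjusted p = 0.102), with an exact permutation p of 0.0286, the smallest that the 35 splits of 7 libraries into 4 and 3 allow. Without Gent replicate 2 the log2 fold change was 1.13 with an edgeR adjusted p of 0.00305, so that the gene was called, where 0.787% of all genes tested were. With each library's trend over gene length removed, it was 0.96 with an adjusted p of 0.0147. It was smaller without Gent replicate 1 (0.57, edgeR adjusted p = 0.0813) and without Gent+Fos OE replicate 1 (0.70, edgeR adjusted p = 0.238). Of its exonic bases, 30.7% are shared with another annotated gene (ENSMUSG00000108934), and reads there were not counted.

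Cdkn2c (ENSMUSG00000028551), which encodes the INK4 inhibitor p18, was the least counted of the 4 inhibitors and the only one of the 10 genes with an unadjusted p under 0.05 and lower values in Gent+Fos OE. It lies on chromosome 4 from 109660876 to 109667189 on the minus strand. The 4 Gent+Fos OE libraries held 11.9, 11.0, 10.1 and 10.4 CPM and the 3 Gent libraries 15.7, 17.1 and 15.1 CPM. The groups were apart, and the spread within each was small, with a coefficient of variation of 7.41% and 6.41% where counting alone gives 5.84% at its lowest count. This gave a log2 fold change of -0.56 (standard error 0.14, 95% interval -0.86 to -0.25, edgeR adjusted p = 0.0703, exact permutation p = 0.0286). It depended little on Gent replicate 2, without which it was -0.51 (edgeR adjusted p = 0.0708). Leaving out any 1 library kept it between -0.61 and -0.51. It was -0.47 with the length trend removed (edgeR adjusted p = 0.0825) and -0.44 with the replicate block as well (edgeR adjusted p = 0.179).

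Cdkn1b, the gene of the inhibitor Kip1 (ENSMUSG00000003031, chromosome 6, 134920401 to 134925513, plus strand), had overlapping groups. Its values were 119, 106, 125 and 116 CPM in Gent+Fos OE and 114, 78.3 and 122 CPM in Gent, where only replicate 2 was below the Gent+Fos OE libraries. The log2 fold change of 0.15 (95% interval -0.20 to 0.50, edgeR adjusted p = 0.573) was -0.03 without that library. Cdkn2d, the gene of the INK4 inhibitor p19 (ENSMUSG00000096472, chromosome 9, 21288410 to 21291407, minus strand), had 32.2, 33.0, 38.4 and 37.9 CPM in Gent+Fos OE and 36.6, 43.6 and 38.7 CPM in Gent. These groups overlapped as well, with a log2 fold change of -0.16 (95% interval -0.45 to 0.12, edgeR adjusted p = 0.436), of -0.09 without Gent replicate 2 and of 0.00 with the length trend removed. Both intervals leave room for a change of up to about 0.5 on the log2 scale in one direction.

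Rb1, the retinoblastoma gene (ENSMUSG00000022105, chromosome 14, 73183673 to 73325822, minus strand), had 82.0, 94.4, 80.5 and 79.8 CPM in Gent+Fos OE and 74.7, 38.6 and 76.6 CPM in Gent. The groups did not overlap, but Gent replicates 1 and 3 were close to the lowest Gent+Fos OE library and replicate 2 was far below. The log2 fold change of 0.41 (standard error 0.21, 95% interval -0.06 to 0.88, edgeR adjusted p = 0.254, exact permutation p = 0.0286) became 0.15 without Gent replicate 2.

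Rbl2, the gene of p130, the pocket protein that prevails in resting cells (ENSMUSG00000031666, chromosome 8, 91070057 to 91123844, plus strand), also had groups that did not overlap. Its values were 49.1, 50.6, 50.2 and 49.0 CPM in Gent+Fos OE, a coefficient of variation of 1.57%, and 47.6, 25.0 and 45.4 CPM in Gent. The log2 fold change was 0.34 (95% interval -0.10 to 0.77, edgeR adjusted p = 0.303, exact permutation p = 0.0286) and 0.09 without Gent replicate 2. In Rb1 and Rbl2, most of the fitted difference thus rested on that library. Other genes share 14.9% of the exonic bases of Rb1 (Lpar6 and Rcbtb2) and 21.0% of those of Rbl2 (Aktip and ENSMUSG00000109727).

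Rbl1, the gene of p107 (ENSMUSG00000027641, chromosome 2, 157145893 to 157204534, minus strand), is known to be higher in dividing than in resting cells. In Gent+Fos OE it was 19.7, 20.9, 20.9 and 22.5 CPM, and in Gent it was 29.3, 11.2 and 21.5 CPM. The Gent libraries lay on both sides of the Gent+Fos OE libraries, and the log2 fold change was 0.02 (95% interval -0.54 to 0.58, edgeR adjusted p = 0.968, exact permutation p = 0.771). Without Gent replicate 2 it was -0.28 (edgeR adjusted p = 0.291), a change of sign. Its promoter was the only one of those read below with an E2F motif, and the 30 bases around it are shown because Rbl1 is a known target of the E2F factors counted further on. The stretch lies at chr2:157204534-157204563 (mm10, the minus strand as written, RefSeq on GRCm38.p6), with the motif in capitals, starting 18 bases before the annotated start.
Rbl1: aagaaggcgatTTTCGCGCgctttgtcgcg

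Promoters were read from 250 bases before to 50 bases after each RefSeq start. The table held 8 such windows for 6 of the 10 genes and none for Cdkn1c, Rb1, Ccnd1 and Ccnd2. An E2F motif (TTTCCCGC, TTTCGCGC, TTTGCCGC or TTTGGCGC, either strand) was in 1 of the 8 windows and in 2.26% of all 32851 promoters. The AP-1 motif bound by Fos with Jun proteins (TGANTCA, either strand) was in 0 of the 8 and in 7.81% of all, and the related cAMP response element (TGACGTCA) in 0 of the 8 and in 1.79% of all. A match describes the letters only, and the lack of one says nothing about binding.

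Ccnd1 (ENSMUSG00000070348, chromosome 7, 144929931 to 144939925, minus strand), the gene of cyclin D1, had the largest fold change of the 10 genes and also the largest spread in Gent+Fos OE. Its values were 153, 279.7, 179 and 149.8 CPM in Gent+Fos OE and 149, 61.9 and 94.4 CPM in Gent. Only a small gap parted the groups, between Gent+Fos OE replicate 4 and Gent replicate 1, and Gent+Fos OE replicate 2 stood well above the rest. Its log2 fold change was 0.90 (standard error 0.30, 95% interval 0.24 to 1.56, edgeR adjusted p = 0.124, exact permutation p = 0.0286). It was 0.66 without Gent+Fos OE replicate 2 (edgeR adjusted p = 0.283), 0.64 without Gent replicate 2 (0.187) and 1.28 without Gent replicate 1 (0.0319). Of its exonic bases, 23.4% are shared with LTO1.

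Ccnd2 (ENSMUSG00000000184, chromosome 6, 127125162 to 127152193, minus strand), the gene of cyclin D2, had overlapping groups. It was 218, 174, 213 and 197 CPM in Gent+Fos OE and 235, 90.2 and 154 CPM in Gent, where replicate 1 was the highest of all 7 libraries. Its log2 fold change was 0.33 (95% interval -0.24 to 0.89, edgeR adjusted p = 0.436, exact permutation p = 0.286), 0.04 without Gent replicate 2 and 0.71 without Gent replicate 1 (edgeR adjusted p = 0.0522).

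Ccnd3 (ENSMUSG00000034165, chromosome 17, 47505051 to 47599691, plus strand), the gene of cyclin D3, had 91.2, 78.1, 87.9 and 92.5 CPM in Gent+Fos OE and 86.8, 118 and 95.9 CPM in Gent. The groups overlapped, and Ccnd3 was the only D cyclin with its highest value in Gent replicate 2. For Ccnd3 the log2 fold change was -0.20 (95% interval -0.50 to 0.11, edgeR adjusted p = 0.381, exact permutation p = 0.257), -0.07 without Gent replicate 2 and -0.46 with the length trend removed (edgeR adjusted p = 0.162). Other genes share 7.86% of the exonic bases of Ccnd2 and 4.11% of those of Ccnd3.

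**Figure D2:**
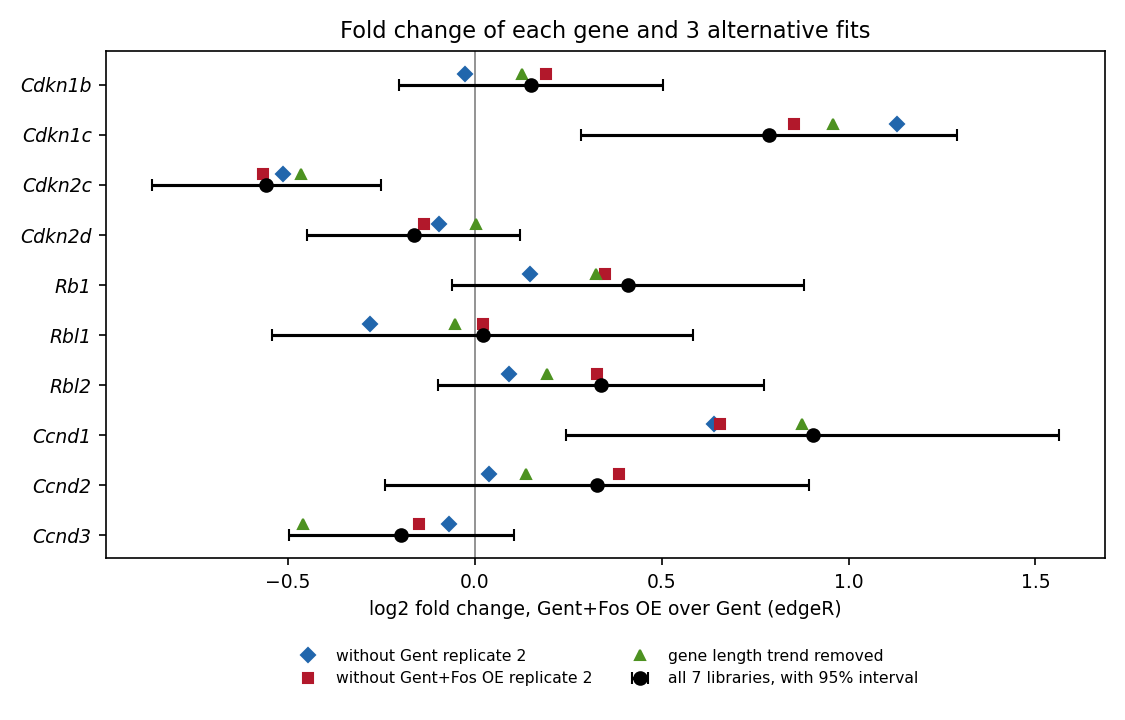
Log2 fold change of each gene, Gent+Fos OE over Gent, from edgeR (horizontal axis), with all 7 libraries (black, 95% interval), without Gent replicate 2 (blue), without Gent+Fos OE replicate 2 (red) and with the gene length trend removed (green). The intervals of Cdkn1c, Cdkn2c and Ccnd1 leave out 0, and the values of Rb1, Rbl1, Rbl2 and Ccnd2 are among those that move down without Gent replicate 2.

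Levels of different genes were compared as CPM per kb of exon. The full exon length was used, although reads in bases shared with other genes were not counted. Shared bases made up 30.7% for Cdkn1c, 23.4% for Ccnd1, 21.0% for Rbl2 and 14.9% for Rb1. They made up 0% for Cdkn1b, Cdkn2c, Cdkn2d and Rbl1, so the order of genes with close levels could differ over countable bases. In Gent+Fos OE the order was Cdkn1c (50.8 ± 6.73 CPM per kb, SD, n = 4), Ccnd1 (40.4), Cdkn1b (25.6), Cdkn2d (22.5), Ccnd2 (21.3), Rb1 (14.0), Ccnd3 (9.96), Rbl2 (6.58), Cdkn2c (4.04) and Rbl1 (3.50). Cdkn1c and Ccnd1 overlapped across libraries, as did Cdkn1b with Cdkn2d, Cdkn2d with Ccnd2, and Cdkn2c with Rbl1, whereas Ccnd1 and Cdkn1b did not, and Rb1, Ccnd3 and Rbl2 each stood apart from their neighbours. In Gent the order was Cdkn1c (29.4 ± 11.4 CPM per kb, SD, n = 3), Cdkn2d (25.2), Cdkn1b (23.0), Ccnd1 (21.6), Ccnd2 (17.0), Ccnd3 (11.4), Rb1 (10.5), Cdkn2c (5.95), Rbl2 (5.20) and Rbl1 (3.45). There every neighbouring pair overlapped except Rb1 and Cdkn2c. Over all libraries Cdkn1c was thus first and Rbl1 last by group mean. The top of the Gent order rested on Gent replicate 2, since without it the means were 26.0 CPM per kb for Cdkn1b, 25.8 for Ccnd1, 23.9 for Cdkn2d and 23.1 for Cdkn1c. Among all genes tested, the mean level per length of the 10 ranged from percentile 43.0 (Rbl1) to percentile 93.8 (Cdkn1c).

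Within a class, shares of these length-scaled levels show which gene supplied most of the counted RNA, under the same limit of shared bases. They are given as a description with no test. Ccnd1 made up 49.1% to 68.4% of the D cyclin RNA in Gent+Fos OE (55.4% ± 8.88, SD, n = 4) and 36.4% to 47.5% in Gent (42.1% ± 5.60, SD, n = 3). Ccnd3 made up 10.3% to 16.7% and 14.9% to 37.1%, with the highest share in Gent replicate 2. Ccnd1 was the leading D cyclin in every library except Gent replicate 2, where Ccnd3 led. Among the 4 inhibitors, Cdkn1c supplied 47.2% to 53.6% in Gent+Fos OE against 26.9% to 45.1% in Gent, whereas Cdkn2c supplied 3.44% to 4.47% and 6.74% to 7.92%. The share of Cdkn2d was 18.6% to 23.8% and 29.5% to 31.4%. Both INK4 genes thus held lower shares, and Cdkn1c higher shares, in every Gent+Fos OE library than in any Gent library. Shares within a class are tied, so a larger share of Cdkn1c by itself lowers those of the others. The level of Cdkn2d itself overlapped between the groups, while that of Cdkn2c did not. Among the pocket proteins, Rb1 held 56.4% to 60.7% and 52.6% to 57.1%, and Rbl1 13.4% to 16.0% and 16.1% to 20.7%. Their sum was between 23.4 and 25.9 CPM per kb in Gent+Fos OE and was 23.6, 11.6 and 22.3 CPM per kb in Gent, so Gent replicate 2 was the only library far from the others.

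**Figure D3:**
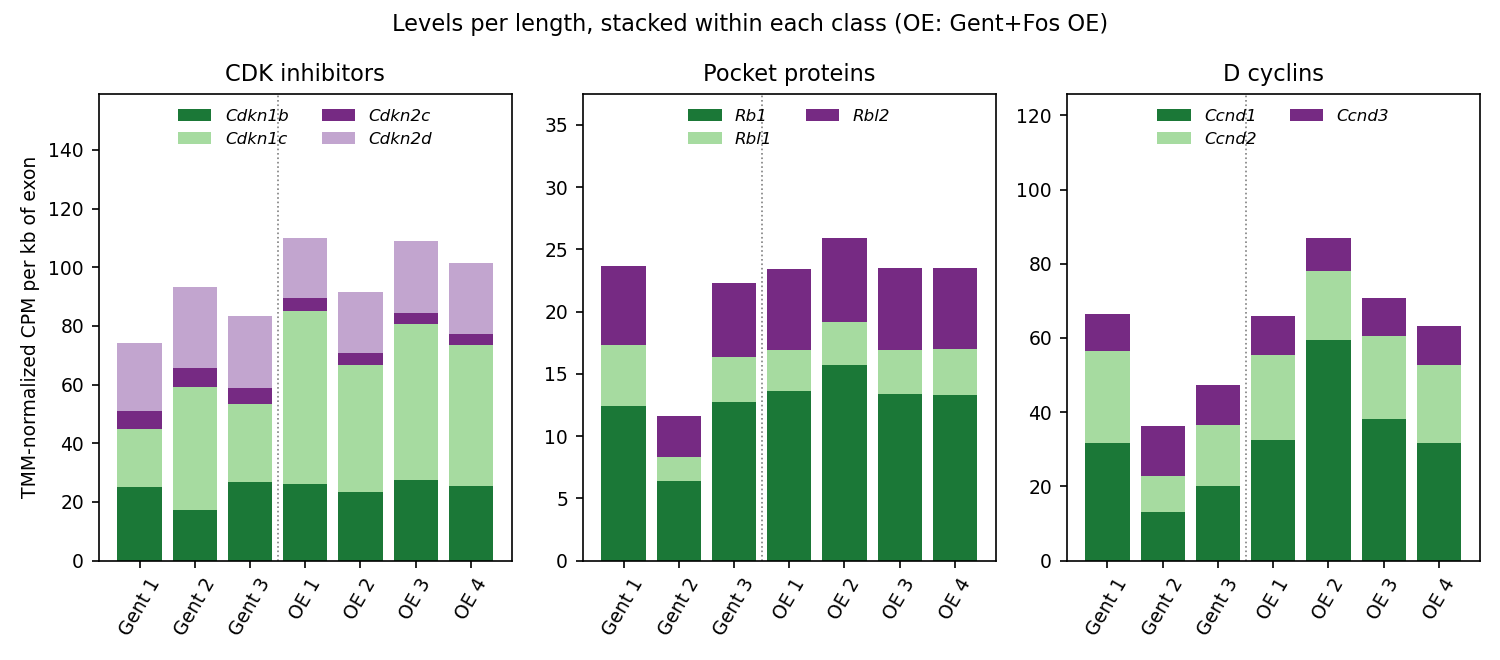
TMM-normalized CPM per kb of exon (vertical axes, from 0) stacked by gene within the CDK inhibitors, the pocket proteins and the D cyclins, 1 bar for each of the 3 Gent and 4 Gent+Fos OE libraries. The Cdkn1c segment is taller in every Gent+Fos OE bar than in any Gent bar, and the pocket protein bar of Gent replicate 2, at 11.6 CPM per kb, is the shortest.

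Of the other 3 inhibitors of the same families, 0 had an unadjusted p under 0.05 with all libraries, and 1 did without Gent replicate 2, with higher values in Gent+Fos OE, as did 9.99% of all genes tested in that fit. Cdkn1a, the p53 target that encodes p21, was the most abundant of all 7 inhibitors, with 43.8% to 49.1% of their length-scaled RNA in Gent+Fos OE against 46.9% to 48.4% in Gent. Its levels were 360.4 to 410 CPM and 291 to 408 CPM, with a log2 fold change of 0.16 (edgeR adjusted p = 0.485), and of 0.30 without Gent replicate 2 (edgeR adjusted p = 0.137). The INK4 genes Cdkn2a and Cdkn2b had log2 fold changes of -0.11 and 0.07 (edgeR adjusted p = 0.84 and 0.838). They were 0.31 and 0.25 without Gent replicate 2.

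The kinase partners of the D cyclins are encoded by Cdk4 and Cdk6. Cdk4 lay between 153 and 168 CPM in Gent+Fos OE and between 183 and 301 CPM in Gent, with no overlap and a log2 fold change of -0.47 (edgeR adjusted p = 0.153). Without Gent replicate 2, its highest library, the log2 fold change was -0.20. Cdk6 was 45.6 to 48.4 CPM and 44.8 to 50.5 CPM, with a log2 fold change of -0.03, which was -0.43 with the length trend removed (edgeR adjusted p = 0.0957). Downstream, Ccne1, the gene of cyclin E1, was 8.61 to 12.6 CPM and 12.3 to 19.3 CPM (log2 fold change -0.68, edgeR adjusted p = 0.102). The groups of Ccne1 overlapped slightly. Ccne2, Cdk2 and the CDK-activating phosphatase gene Cdc25a had log2 fold changes of -0.32, -0.07 and -0.09, none with an unadjusted p under 0.05 in edgeR. Without Gent replicate 2, 3 of these 4 genes had an unadjusted p under 0.05 with lower values, where 10.2% of all genes tested did, and Ccne1 was at -0.52, Ccne2 at -0.48, Cdk2 at -0.24 and Cdc25a at -0.16.

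Of the 10 E2F and DP genes, which encode the factors that pocket proteins hold, 1 had an unadjusted p under 0.05 with higher values in Gent+Fos OE and 2 with lower values, against 11.1% and 13.4% of all genes tested. The activator E2f1 was 12.5 to 17.2 CPM in Gent+Fos OE against 18.7 to 20.3 CPM in Gent (log2 fold change -0.45, edgeR adjusted p = 0.124). The repressor E2f8 was 5.03 to 7.04 and 7.37 to 10.7 CPM (-0.59, edgeR adjusted p = 0.129), and the partner Tfdp2 was 44.3 to 57.6 and 33.6 to 42.5 CPM (0.33, edgeR adjusted p = 0.196). None of these 3 had overlapping groups, and Tfdp2 turned to -0.07 with the length trend removed. When Gent replicate 2 was left out, 0 of the 10 passed with higher values and 2 with lower values, and Tfdp2 was at 0.23. The other 7 ranged in log2 fold change from -0.27 (E2f2) to 0.20 (E2f3), with E2f7 at -0.14, E2f4 at -0.10, E2f5 at -0.07, E2f6 at -0.01 and Tfdp1 at 0.01. E2f3 was at -0.06, E2f7 at -0.41, E2f2 at -0.38 and Tfdp1 at -0.09 when that library was left out.

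The MuvB core proteins join p107 or p130 in the DREAM complex, which represses cell cycle genes in resting cells, and B-Myb, made from Mybl2, is known to bind MuvB in place of a pocket protein and to activate mitotic genes. Of 4 MuvB core genes tested, 0 had higher and 1 lower values at an unadjusted p under 0.05, Lin37 (log2 fold change -0.51, edgeR adjusted p = 0.169), and Rbbp4, the highest in CPM, was at 0.03. Mybl2 had an unadjusted p under 0.05 as well (-0.48, edgeR adjusted p = 0.161). Neither passed without Gent replicate 2, with log2 fold changes of -0.23 for Lin37 and -0.26 for Mybl2. Of 11 genes for the turnover of inhibitors and cyclins, 2 were higher (Fbxw7 and Rnf123, log2 fold changes 0.41 and 0.31) and 3 lower (Cks2, Cks1b and Rbx1, -0.57, -0.40 and -0.31) at that limit, beside 11.1% and 13.4% of all genes tested. With the length trend removed Fbxw7 was at 0.26 and Rnf123 at 0.16, and neither passed. The counts were 2 higher and 1 lower without Gent replicate 2, with Cks1b at -0.22 and Rbx1 at -0.19. The highest of them in CPM, the ubiquitin ligase subunit gene Skp1, was at -0.24. Of 9 genes for transcription factors known to act on some of the 10 genes, 1 was higher (Foxo1, a factor that raises Cdkn1b, 0.56, edgeR adjusted p = 0.133) and 1 lower (Junb, -0.38, edgeR adjusted p = 0.149), beside the same 11.1% and 13.4%. Jun, the highest in CPM in Gent (mean 112 CPM, against 109 CPM in Gent+Fos OE), was at -0.03, and Foxo3, the highest in Gent+Fos OE (mean 121 CPM, against 92.4 CPM in Gent), was at 0.39 (edgeR adjusted p = 0.285). The counts were 1 and 1 without Gent replicate 2 too, with Foxo1 at 0.37, Junb at -0.22 and Foxo3 at 0.14. Lin37, Fbxw7, Rnf123, Cks1b, Rbx1, Junb and Foxo3 are named here because they make up these counts or lead in level, after their values were seen.

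Pocket proteins are known to keep off many genes of DNA replication and mitosis, and most genes in the lists of both had lower values in Gent+Fos OE at an unadjusted p under 0.05, with none called by edgeR on the values as normalized. Of 14 DNA replication genes, 13 had an unadjusted p under 0.05 and lower values, where 13.4% of all genes tested did, and 11 had groups that did not overlap, where 12.2% of all genes did in that direction. Their median log2 fold change was -0.46, beside -0.00075 over all genes tested. Of them, 0 were called by edgeR and 4 by DESeq2, beside 0.414% and 2.86% of all genes that each tested. With the length trend removed, 2 were called lower by edgeR, where 0.758% of all genes tested were called, namely the helicase gene Mcm6 (-0.60, edgeR adjusted p = 0.00907) and Rrm1, the gene of a ribonucleotide reductase subunit (-0.71, edgeR adjusted p = 0.00974), both named after their values were seen. The clamp gene Pcna, the highest of the list in CPM and per kb, was 87.2 to 114 CPM in Gent+Fos OE against 128 to 143 CPM in Gent (log2 fold change -0.45, edgeR adjusted p = 0.0981). The helicase gene Mcm5, with the lowest p, was 29.1 to 32.9 and 44.8 to 51.2 CPM (-0.63, edgeR adjusted p = 0.0288). Of 14 mitosis genes, 10 had an unadjusted p under 0.05 and lower values, and 0 passed with higher values. Their median log2 fold change was -0.56, with Aurkb, a kinase of chromosome segregation, at -0.78 (10.2 to 11.7 and 16.9 to 21.2 CPM, edgeR adjusted p = 0.0235). Top2a, the highest of the list in CPM, was at -0.31 with overlapping groups. Per kb of exon Cdc20, named after its values were seen, was above it (11.6 against 9.94 CPM per kb in Gent+Fos OE and 16.8 against 12.4 in Gent), with a log2 fold change of -0.53, an edgeR adjusted p of 0.114 and groups that did not overlap. In all, 0 mitosis genes were called by edgeR and 2 by DESeq2, beside the same 0.414% and 2.86%. Without Gent replicate 2 the counts at an unadjusted p under 0.05 were 14 of 14 and 13 of 14, where 10.2% of all genes tested passed in that direction. The medians were then -0.48 and -0.56, and 1 replication gene was called, beside 0.787% of all genes tested. These lists were chosen with earlier results of these data known and are counted without a test of the list.

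Markers of some other cell types were lower in Gent+Fos OE as well. The summed level of 8 macrophage markers was 869 to 1473 CPM in Gent+Fos OE against 1612 to 2041 CPM in Gent, with 6 of the 8 lower at an unadjusted p under 0.05, where 13.4% of all genes tested were, and the other 2 with lower values that did not pass. The 6 melanocyte markers summed to 45.7 to 50.9 and 87.6 to 124 CPM, with 5 lower at that limit. Of these, 2, Dct and Tyrp1, were called lower by edgeR, where 0.414% of all genes tested were called. DESeq2 called 3 macrophage and 5 melanocyte markers lower, where it called 2.86% of all genes it tested. None of these macrophage or melanocyte markers was at 0 in either group. Summed mesenchyme markers (6668 to 10131 and 8173 to 12094 CPM), endothelial markers (42.5 to 48.8 and 28.2 to 45.6 CPM), glial markers (242 to 315 and 245 to 266 CPM) and neuronal markers (68.8 to 83.9 and 59.2 to 77.4 CPM) overlapped between the groups. Of 5 endothelial markers tested, DESeq2 called 1, beside 2.86% of all genes it tested. At an unadjusted p under 0.05 in edgeR, 2 had higher values, where 11.1% of all genes tested did, both without overlap. These were Flt1, a VEGF receptor gene, at 2.02 to 2.66 CPM in Gent+Fos OE and 0.318 to 0.821 CPM in Gent (log2 fold change 2.04, edgeR adjusted p = 0.0281), and Cdh5, the gene of VE-cadherin, at 11.1 to 18.5 and 7.45 to 10.7 CPM (0.77, edgeR adjusted p = 0.0876). The other 3 were at -0.27 (Pecam1), -0.08 (Tek) and 0.07 (Kdr), and the median of the 5 was 0.07, or -0.06 without Gent replicate 2. Of 6 glial markers, 3 were lower and 1 higher at the same limit, where 13.4% and 11.1% of all genes were, with Pmp22, a myelin protein gene, at -0.54 (69.6 to 80.3 and 99.6 to 114.8 CPM, edgeR adjusted p = 0.0457, called by DESeq2) and Erbb3, a neuregulin receptor gene, at 0.54 (edgeR adjusted p = 0.118), both without overlap. Of 6 neuronal markers tested, 2 were higher, Stmn2 (1.72, edgeR adjusted p = 0.166) and Nefm (0.45, edgeR adjusted p = 0.183), both with overlapping groups, and of 10 mesenchyme markers 2 were lower and 0 higher. Markers of the sensory epithelium passed with higher values in 3 of 10 tested for supporting cells and 3 of 11 tested for hair cells. This was so for 11.1% of all genes tested, and 0 of these markers passed with lower values. The median log2 fold changes were 0.05 and 0.09. Without Gent replicate 2, 1 hair cell marker passed with lower values, and with the length trend removed 1 marker of each list did. DESeq2 called 0 supporting cell markers and 1 hair cell marker. The part of macrophages, melanocytes, endothelium, glia, neurons or other cells in the values of the 10 genes and of the cell cycle lists was not tested.

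**Figure D4:**
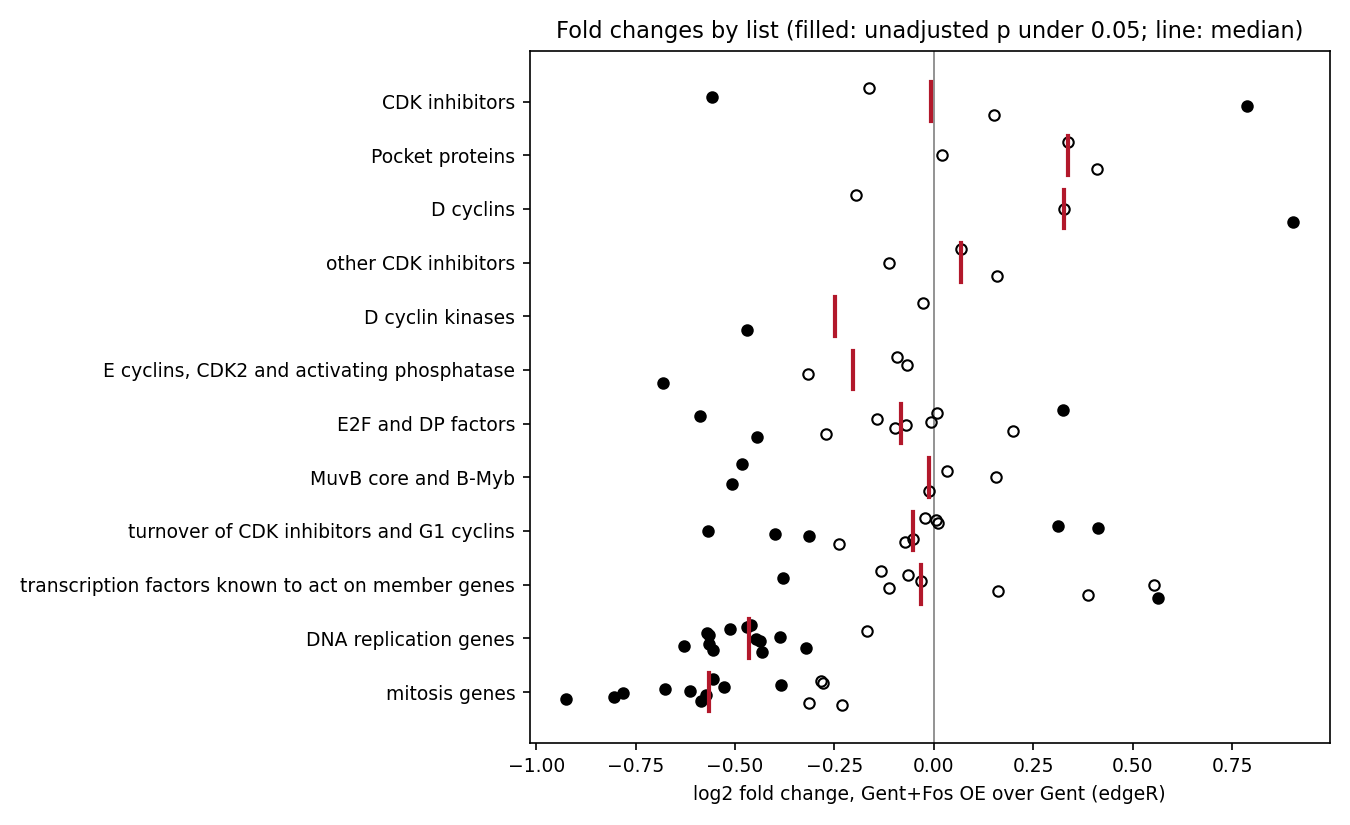
Log2 fold changes, Gent+Fos OE over Gent, from edgeR (horizontal axis) for every tested gene of the 3 classes and of 9 lists of their partners and targets, with filled points at an unadjusted p under 0.05 and a red line at the median of each list. The 14 replication and 14 mitosis genes all lie below 0, with medians of -0.46 and -0.56, while the CDK inhibitors, pocket proteins and D cyclins spread from -0.56 to 0.90.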

How the data were processed

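Total RNA from pools of 12 utricles was sequenced as paired-end reads by the authors, who trimmed, aligned and counted them (Trim Galore 0.6.10, HISAT2 2.2.1 and featureCounts 2.0.6, per the labels). The deposited values are raw read counts per gene. Per the file headers, they were made on an mm10 annotation, with both reads of a pair counted, strand ignored, and reads hitting several places or genes left out. The paper's methods name mm39 and 3 replicates per condition, so all 7 libraries were kept and coordinates follow the files. Gene symbols were matched for 24669 genes.

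Counts were filtered by filterByExpr, normalized by TMM and compared by the quasi-likelihood test in edgeR 4.0.16 (R 4.3.3), without covariates. DESeq2 1.42.0 and limma 3.58.1 were alternatives, as were other normalizations and filters, removal of the gene length trend (loess span 0.3), the replicate block and leaving out each library. Two-sided exact permutation tests used the difference in mean log2 CPM. Scripts were tested on simulated data. Named genes are the 10 genes, all genes of the kinase, inhibitor, cyclin E and E2F lists, and from every other pathway list the called genes or else the highest in CPM and the lowest in p. Marker genes of cell types fall outside that rule and were named after their values were seen. The 10 genes and the lists were chosen with earlier results of these data known. Library totals had a median of 31313523 counts. Replicates differed by 17.8 to 147 in chi-square per degree of freedom, more than read sampling gives, so the spread between pools sets the precision. The titles number the replicates as biological, but do not say whether a number marks a shared animal or day.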

Additional observations from a re-analysis of the deposited data

Results flagged for a closer look

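Within the 4 Gent+Fos OE libraries, 21 measures of the 10 genes and Fos were checked for a library far from the other 3, by the gap to its nearest neighbour over the whole range (Dixon's 95% limit for 4 values). Chance alone flags about 1 in 20, and 3 passed. Rb1 was 94.43 CPM in replicate 2, against 79.8 to 82.0 CPM in the others. Fos was 167 CPM in replicate 3, against 149 to 151 CPM. The share of Cdkn1b among the 4 inhibitors was 23.76% in replicate 1, against 25.2% to 25.4%. The 3 Gent libraries are too few for this check.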

How the results depend on the processing

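The number of genes called over the whole table was 71 and depended strongly on the processing. DESeq2, with another filter (20975 genes tested against 17155), called 600, no filter on low counts 204 and removal of the gene length trend 130. With limma-voom 65 were called, and 961 with sample quality weights added. DESeq2 without Gent replicate 2 called 646. The fit with quality weights and this last fit were chosen after seeing the data. With the replicate block edgeR called 0 (1697 higher and 1703 lower at an unadjusted p under 0.05). Over the fits that each leave out 1 library, the count ran from 5 (without Gent+Fos OE replicate 3) to 138 (without Gent replicate 2). Of the 10 genes, 0 were called in the main comparison, 1 with DESeq2, 3 with quality weights, 1 with DESeq2 without Gent replicate 2, and 0 to 1 with a library left out. Cdkn1c passed at a log2 fold change of 1.00 with quality weights, 1.13 without Gent replicate 2 and 1.14 with DESeq2 without it. Cdkn2c passed at -0.55 with DESeq2 (adjusted p = 0.00794) and -0.52 with quality weights, and Ccnd1 at 0.84 with quality weights. Signs turned for Cdkn1b (-0.0054 with quality weights, -0.0265 without Gent replicate 2, -0.0195 with DESeq2 without it), Cdkn2d (0.0026 with the length trend removed) and Rbl1 (-0.054 with the length trend removed, -0.0273 with the replicate block and length trend removed, -0.0683 with quality weights, -0.02 without Gent+Fos OE replicate 4, -0.28 without Gent replicate 2, -0.27 with DESeq2 without it). The cause was not tested. Of 180 values of the 10 genes under 18 alternatives, 164 kept direction and side of the limit. A value that shrank but stayed uncalled counted as kept. Without Gent replicate 2, Ccnd2 moved from 0.33 to 0.04, Rbl2 from 0.34 to 0.09 and Rb1 from 0.41 to 0.15. With libraries left out in turn, log2 fold changes ran from -0.03 to 0.28 for Cdkn1b, 0.57 to 1.13 for Cdkn1c, -0.61 to -0.51 for Cdkn2c, -0.28 to 0.36 for Rbl1 and 0.64 to 1.28 for Ccnd1. Deviations of same-numbered libraries were hardly correlated (-0.038 to 0.0643), which cannot show whether they shared an animal or day. Under the replicate block the log2 fold changes were 0.87 for Cdkn1c, -0.54 for Cdkn2c and 1.04 for Ccnd1, none called.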
